A study of Homo sapiens with 12 samples.

Results

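The nuclear genes for the subunits of the mitochondrial respiratory chain were followed in A375 melanoma cells with and without MAPKAPK2 and with and without the drug JQ1. Members were chosen by symbol: NADH dehydrogenase genes (NDUF followed by A, B, C, S, V or AB and a number), SDHA to SDHD, 8 UQCR genes and 11 COX genes. The pattern found 61 of the 56609 rows of the count table. They comprised 7 core and 30 accessory subunits of complex I, 4 subunits of complex II, 8 of complex III and 12 of complex IV, where NDUFA4 was counted as a complex IV subunit. The same rule also listed ATP synthase genes under their current ATP5 symbols, but no row carried one of those symbols. The table uses older symbols (ATP5A1 for ATP5F1A, ATP5B for ATP5F1B), and 15 ATP synthase genes were found through RefSeq synonyms. These 15 are described beside the 61 and are not counted among them. All 76 genes had enough counts to be tested.

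Oxidative phosphorylation turns the electrons of NADH and succinate into ATP. Complex I takes electrons from NADH and complex II from succinate, complex III passes them to cytochrome c, and complex IV hands them to oxygen. Complexes I, III and IV pump protons across the inner mitochondrial membrane, and ATP synthase makes ATP from the return flow. Most subunits are encoded in the nucleus, translated in the cytosol and imported, while a small set is encoded by mitochondrial DNA, so the complexes are built from the products of both genomes. In melanoma, the lineage factor MITF and the coactivator PGC-1α (gene PPARGC1A) are known to support the expression of these genes in some tumours.

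A375 is an established human melanoma line. The 4 groups of 3 replicates were unedited (wild-type) cells and cells in which CRISPR/Cas9 had knocked out MAPKAPK2, which encodes the stress kinase MK2. Each genotype received DMSO, the vehicle, or 500 nM JQ1 over 48 h. JQ1 inhibits BET bromodomain proteins, which read acetylated chromatin, and the series asks how loss of MAPKAPK2 affects the response to such inhibitors. The labels do not say whether the knockout line is 1 clone, or whether replicates are separate cultures, so p-values measure only the spread between these samples, which may be technical. RNA was sequenced after removal of ribosomal RNA.

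The 12 libraries held 25316565 to 34594025 estimated counts, and each member had between 119 and 10959 in every library. MAPKAPK2 checked the labels: it was at 88.8, 87.9 and 92.1 CPM (counts scaled to a common library size) in wild-type DMSO and 11.1, 13.2 and 13.0 CPM in knockout DMSO, a log2 fold change of -2.85 (SE 0.09). SOX10, a marker of the melanocyte lineage, was at 437 CPM in wild-type DMSO and MITF at 43.1 CPM, while the pigment cell genes PMEL (0.513 CPM) and MLANA (0.78 CPM) were near the floor and TYR and DCT had too few counts to test. The leukocyte genes PTPRC and CD3E, the epithelial genes EPCAM and CDH1 and the endothelial gene CDH5 also had too few counts to test. In knockout JQ1 replicate 3, 4 abundant noncoding RNAs took 14.6% of the counts, where they took at most 12.3% in any other library and 9.42% in the lowest library. Where leaving it out moves a count of the 61 members by over 1.5 times, both counts are given.

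The promoters of 5 members are shown as examples of the 2 patterns described further on: NDUFB2, COX6A1, SDHA and UQCRC1 rose with JQ1, and NDUFS1 is a core subunit whose level moved little. Each sequence is the 250 bases before the RefSeq start site on the gene's strand, 5′ to 3′, from build GRCh38.p14. Capitals mark matches on either strand to the NRF1 site, which is GCGCA, then any base, then GCGC, or to CCGGAAG, the core bound by ETS factors such as GABP.
NDUFB2, chr7:140696458-140696707, plus strand: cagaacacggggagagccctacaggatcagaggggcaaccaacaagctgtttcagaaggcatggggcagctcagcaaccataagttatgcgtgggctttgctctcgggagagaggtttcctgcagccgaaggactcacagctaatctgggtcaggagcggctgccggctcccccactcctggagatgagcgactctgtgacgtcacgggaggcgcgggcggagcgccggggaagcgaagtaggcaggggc
COX6A1, chr12:120437863-120438112, plus strand: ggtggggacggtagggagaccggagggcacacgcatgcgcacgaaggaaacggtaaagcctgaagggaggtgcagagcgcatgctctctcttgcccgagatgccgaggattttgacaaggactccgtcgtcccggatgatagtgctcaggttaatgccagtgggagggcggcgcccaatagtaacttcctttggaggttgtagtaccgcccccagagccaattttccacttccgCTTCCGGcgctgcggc
SDHA, chr5:218070-218319, plus strand: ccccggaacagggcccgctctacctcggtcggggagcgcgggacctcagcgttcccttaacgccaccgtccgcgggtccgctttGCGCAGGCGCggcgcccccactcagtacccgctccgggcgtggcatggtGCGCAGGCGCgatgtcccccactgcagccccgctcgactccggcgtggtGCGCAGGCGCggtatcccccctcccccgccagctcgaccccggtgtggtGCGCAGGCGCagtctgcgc
UQCRC1, chr3:48609647-48609896, minus strand: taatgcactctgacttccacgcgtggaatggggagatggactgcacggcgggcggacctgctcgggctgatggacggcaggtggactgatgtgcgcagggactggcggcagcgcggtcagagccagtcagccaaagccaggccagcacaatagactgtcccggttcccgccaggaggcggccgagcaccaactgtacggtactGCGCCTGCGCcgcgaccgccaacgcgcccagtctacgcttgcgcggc
NDUFS1, chr2:206159445-206159694, minus strand: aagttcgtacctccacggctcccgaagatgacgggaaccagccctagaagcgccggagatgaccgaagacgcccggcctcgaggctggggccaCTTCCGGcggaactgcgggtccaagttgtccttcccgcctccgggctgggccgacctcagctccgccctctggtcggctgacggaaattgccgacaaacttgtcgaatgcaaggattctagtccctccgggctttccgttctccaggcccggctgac

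SDHA held 4 NRF1 matches, each 49 bases from the next, UQCRC1 held 1, COX6A1 and NDUFS1 held 1 ETS match each, and NDUFB2 held none of either. Over the full RefSeq window, 250 bases before to 50 after the start, 52 members had a promoter in the table. NRF1 matches were in 23.1% of the 52, against 8.57% of 15842 protein-coding promoters of the same length. ETS matches were in 28.8% against 14.2%, and matches to AAGATGGCG, the site of YY1, in 13.5% against 2.74%. The E-box CACGTG, which reads the same on both strands and is bound by MYC and MITF, was in 7.69% of the members and 8.88% of all promoters. Among tested protein-coding genes only, the shares were 10.9% for NRF1, 17.9% for ETS, 3.65% for YY1 and 9.77% for the E-box. Of the 28 members with a promoter that rose with JQ1 in wild type, 6 held an NRF1 match, as did 6 of the other 24. ETS matches were in 9 of the 28 and 6 of the 24, YY1 matches in 4 and 3, and the E-box in 4 (NDUFA7, NDUFA11, NDUFS7 and UQCR11) and 0. These splits were not tested. A match describes these letters and is not a measured site of binding.

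How abundant the mRNAs were was read in wild-type DMSO as CPM per kilobase of the principal annotated transcript. Complex IV genes had the highest median level, 144 CPM per kb, followed by ATP synthase genes at 103. The medians of the other groups were at most 51.4 CPM per kb (complex I core). UQCRH, the hinge subunit of complex III, was at 421 ± 7.51 CPM per kb and ATP5B, the catalytic β subunit of ATP synthase, at 412 ± 8.61 (SD, n = 3). COX6A1 followed at 341 ± 16.7 and COX4I1, a scaffold subunit of complex IV, at 311 ± 19.2. At the other end stood NDUFV3 (3.12 ± 0.204) and NDUFA9 (4.10 ± 0.225), both complex I. These levels depend on the transcript chosen, and long principal transcripts, such as 13566 bases for SDHC, give low values. The 61 members together held between 0.505% and 0.574% of a library's counts.

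JQ1 in wild-type cells was followed by higher levels of many respiratory chain genes. Of the 61 members, 29 rose and 4 fell at an adjusted p of 0.05 (edgeR's quasi-likelihood test, Benjamini-Hochberg over 21698 genes), which is 54.1% called, where 33.1% of all tested genes were called (16.9% higher and 16.2% lower). The median log2 fold change of the members was 0.17 and that of all tested genes -0.03. The 33 called members had no overlap between JQ1 and DMSO libraries. The same share was not counted over all tested or all called genes, so this only describes the 33. All rises were below 2 times, with a range over all 61 members of -0.41 to 0.78 on the log2 scale. These are shares of a library, so a change in the mRNA per cell and a change in the share of cells that hold it cannot be told apart in bulk RNA.

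The scaling of the libraries bears on those directions. With library totals in place of TMM, the median log2 fold change of all genes shifted by -0.13, and the members split into 16 higher and 15 lower with a median of 0.04. All 16 of those higher members were among the 29, and the other members of the 29 still had positive values. A change of scaling moves all genes of a comparison by nearly the same amount. The distance between the members' median and that of all genes, 0.20, was therefore the same under both scalings by construction. The share of counts in the 4 noncoding RNAs moved too, from between 9.42% and 9.76% in wild-type DMSO to between 10.6% and 11.7% in wild-type JQ1, and its part in the result was not tested. In knockout cells the DMSO libraries (10.5% to 11.6%) and the JQ1 libraries (up to 14.6%) overlapped.

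**Figure D1:**
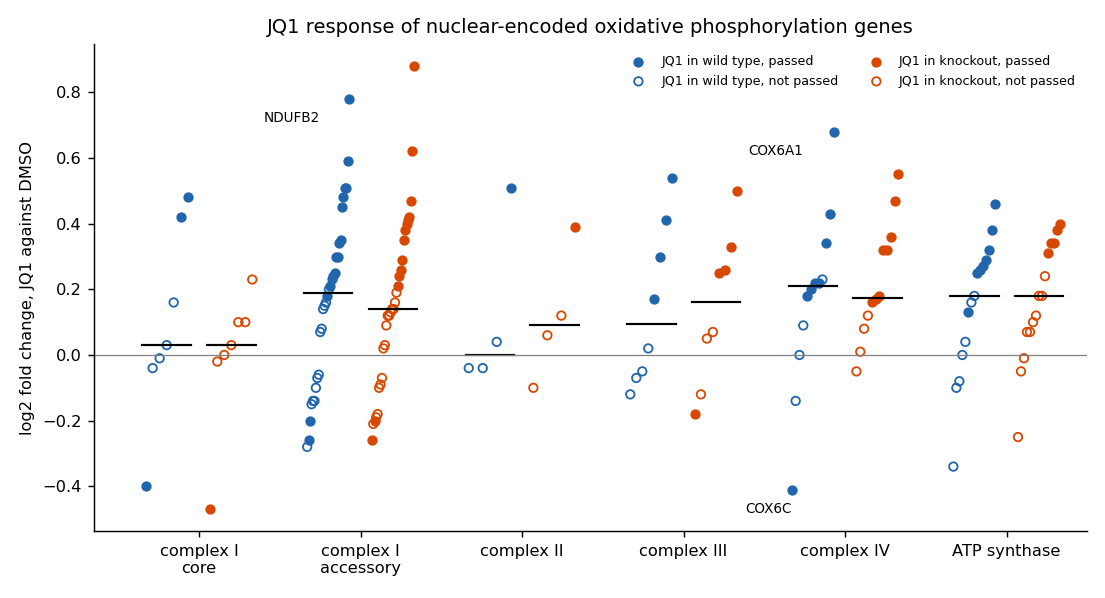
Log2 fold change with JQ1 against DMSO (vertical axis) of each subunit gene, by complex, in wild type (blue) and knockout (orange) on the TMM scale; filled points passed an adjusted p of 0.05 and bars are group medians. The rise of NDUFB2 (0.78 and 0.88) appears in both genotypes, and COX6C was lower in wild type (-0.41) and higher in knockout (0.36).

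Complex I held the member with the largest rise. Of its 30 accessory subunits, which surround the catalytic core, 15 rose and 2 fell in wild type, with a median of 0.19. With library totals only, 8 rose and 8 fell. NDUFB2, an accessory subunit of the membrane arm, was at 40.8, 40.0 and 42.7 CPM in wild-type DMSO and at 74.4, 69.0 and 69.0 CPM in wild-type JQ1. All JQ1 libraries were above all DMSO libraries, and the log2 fold change of 0.78 (SE 0.06, adjusted p 3.31e-07 by edgeR) was the largest among the members. NDUFA2, another accessory subunit, went from 41.2, 41.4 and 44.0 CPM to 64.3, 66.9 and 60.0 CPM, a log2 fold change of 0.59 (SE 0.06). NDUFA7 was at 22.7, 22.7 and 23.9 CPM in DMSO and at 33.7, 32.6 and 32.6 CPM in JQ1, a log2 fold change of 0.51 (SE 0.10). The groups did not overlap for either gene.

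Several of these genes share genomic sequence with neighbours, and whether the authors' counting used the strand is not given in the sources used here. NDUFB2 overlaps ADCK2 on the same strand, and ADCK2 had from 28.7% to 61.2% as many counts as NDUFB2 in a library, with means of 54.7% in knockout DMSO and 30.3% in knockout JQ1. On the opposite strand NDUFB2 overlaps BRAF, which had 20.0% to 51.1% as many counts. NDUFA2 overlaps IK (128% to 267% of its counts) and NDUFA7 overlaps RPS28 (407% to 570%), both on the opposite strand. NDUFS1, whose level moved little, overlaps EEF1B2 there (204% to 267%). In all, 30 of the 61 members overlap an exon of another annotated gene of the table, 22 of them one on the opposite strand, and in 16 the other gene reached 10% of the member's counts in some library. How reads were split between them was not tested.

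Falls in wild type were fewer. NDUFS4, an accessory subunit whose loss causes a known form of mitochondrial disease, fell by 0.26 on the log2 scale (SE 0.08), and NDUFB5 fell by 0.20 (SE 0.07). COX6C of complex IV also fell and is described with the comparison of the genotypes.

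The 7 core subunits of complex I, which carry the flavin and iron-sulfur clusters, had a median of 0.03 in wild type, and NDUFS7 (0.48) and NDUFS8 (0.42) rose. NDUFS1, which holds iron-sulfur clusters near the entry of electrons, was at 131, 131 and 126 CPM in DMSO and 134, 133 and 130 CPM in JQ1. These groups overlapped, and the log2 fold change was 0.03 (95% interval -0.08 to 0.14), turning to -0.10 with library totals only. NDUFV1, which binds NADH, had a value of -0.01 (95% interval -0.14 to 0.12). The summed CPM of the 7 genes was 98.5% ± 2.37 of the wild-type DMSO mean in wild-type JQ1 (SD, n = 3), and 90.1% ± 0.557 with library totals only.

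In complex II, which is also the succinate dehydrogenase of the citric acid cycle, 1 of 4 subunits passed. SDHA, the flavoprotein that oxidises succinate, was at 92.4, 92.4 and 97.7 CPM in wild-type DMSO and at 138, 137 and 127 CPM in wild-type JQ1. Its log2 fold change was 0.51 (SE 0.07, adjusted p 6.43e-05 by edgeR). SDHB, the iron-sulfur subunit, was at -0.04 (95% interval -0.15 to 0.06), and SDHC and SDHD, the membrane anchors, were at 0.04 and -0.04. The genes of 1 complex thus had unequal values, and a change of scaling moves them nearly alike.

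Complex III gave 4 rises among 8 genes in wild type: UQCRC1 (0.54), UQCRQ (0.41), UQCR11 (0.30) and UQCRH (0.17). With library totals only, 2 rose and 2 fell. UQCRC1, a large core subunit on the matrix side, went from 154, 156 and 152 CPM to 233, 231 and 207 CPM (SE of the log2 fold change 0.07, adjusted p 2.63e-05 by edgeR). UQCRFS1, the Rieske iron-sulfur protein that carries electrons to cytochrome c1, was at 0.02 (95% interval -0.10 to 0.14).

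Complex IV gave 7 rises and 1 fall among 12 genes, and 3 rises and 2 falls with library totals only. COX6A1, a small subunit with a heart and muscle counterpart, was at 191, 188 and 206 CPM in wild-type DMSO and 314, 314 and 307 CPM in wild-type JQ1. The groups were separated by more than their ranges, with a rise of 0.68 on the log2 scale (SE 0.06; edgeR adjusted p 1.08e-06). COX8A (0.43), COX7A2 (0.34) and COX5A (0.22) also rose. COX4I1 was at 220, 210 and 238 CPM in DMSO and at 222, 228 and 217 CPM in JQ1. Its groups overlapped and its log2 fold change was within 0.01 of 0 (95% interval -0.11 to 0.10).

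Of the 15 ATP synthase genes, 8 rose and none fell in wild type, with a median of 0.18; with library totals only 2 rose and 3 fell. None passed with a lower level by edgeR on the TMM scale. There 11 of the 15 had an unadjusted p under 0.05, where 9114 of 21698 tested genes did. ATP5L, a subunit of the membrane part, rose by 0.46 (SE 0.06) and ATP5G3, which encodes the proton-carrying ring subunit, by 0.32 (SE 0.06). ATP5B, the most abundant of these mRNAs per library, was at 748, 750 and 776 CPM in wild-type DMSO and 844, 831 and 817 CPM in wild-type JQ1, a rise of 0.13 on the log2 scale (SE 0.05; edgeR adjusted p 0.036). ATP5A1, the α subunit, rose by 0.25 (SE 0.05).

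**Figure D2:**
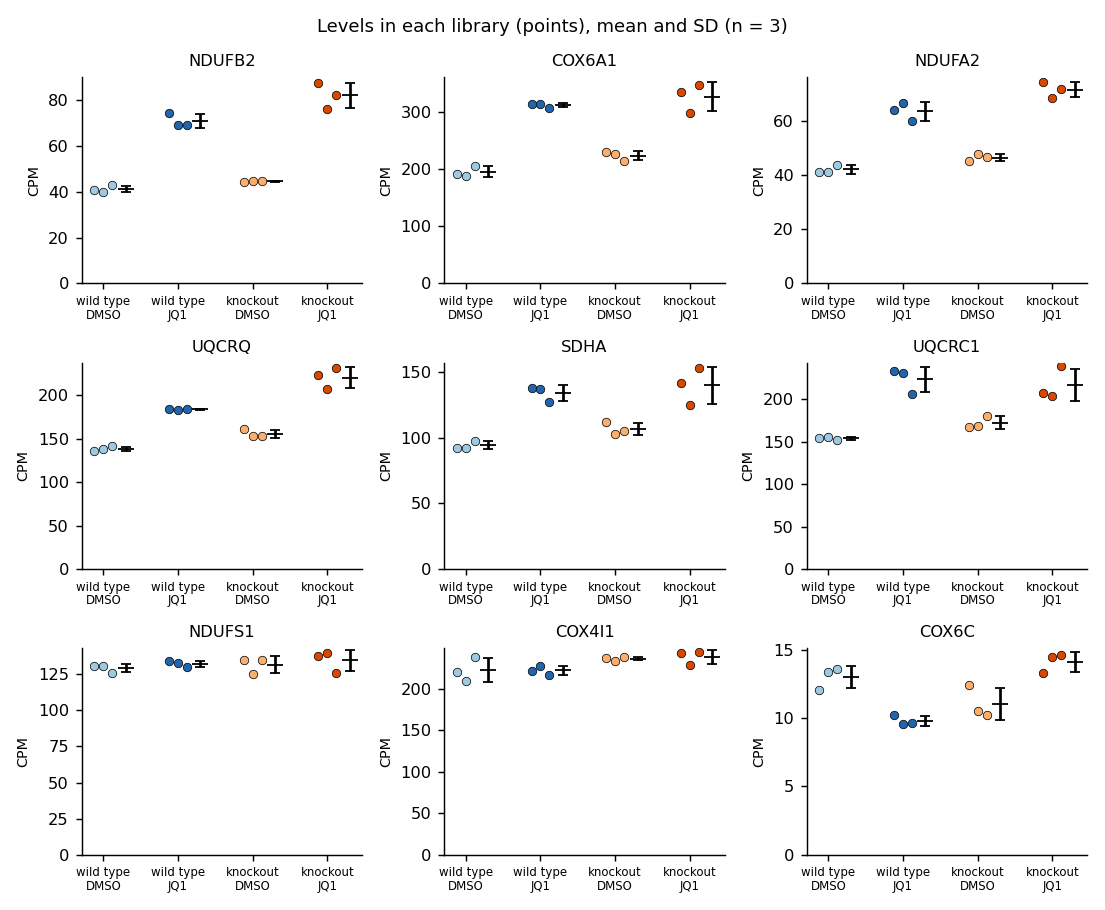
CPM on TMM-scaled libraries (vertical axis, from 0) of 9 members in each library (points), with the mean and SD of each group of 3. The JQ1 points lie above the DMSO points for NDUFB2, COX6A1, NDUFA2, UQCRQ, SDHA and UQCRC1 in both genotypes, the NDUFS1 points overlap, and COX6C has its highest mean in knockout JQ1 and its lowest in wild-type JQ1.

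JQ1 was followed by higher levels of many members in knockout cells too. There 25 members rose and 4 fell, which is 47.5% called, where 34.4% of all tested genes were called (16.7% higher, 17.8% lower). The members' median was 0.13, and that of all genes 0.00. With library totals only, 16 rose and 9 fell, the members' median was 0.02, and all genes shifted by -0.12. The distance between the medians, 0.14, was again the same under both scalings by construction.

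NDUFB2 was at 44.2, 44.6 and 44.6 CPM in knockout DMSO and 87.3, 76.2 and 82.3 CPM in knockout JQ1, and rose by 0.88 on the log2 scale (SE 0.06; edgeR adjusted p 8.22e-08). NDUFA2 rose by 0.62 (SE 0.06), COX6A1 by 0.55 (SE 0.06) and NDUFC2, an accessory subunit of the membrane arm, by 0.47 (SE 0.07). UQCRQ, a small subunit of complex III, went from 161, 153 and 153 CPM to 223, 207 and 231 CPM, a log2 fold change of 0.50 (SE 0.05). All JQ1 libraries of these genes lay above all DMSO libraries. NDUFB8, an accessory subunit of complex I, went from 83.9, 81.6 and 82.2 CPM to 66.5, 62.4 and 77.3 CPM, and fell by 0.26 on the log2 scale (edgeR adjusted p 0.0093). NDUFB4 (-0.20) and UQCR10 of complex III (-0.18) also fell.

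By complex, 12 of 30 accessory complex I genes rose and 2 fell in knockout, 8 of 12 complex IV genes rose and none fell, 4 of 8 complex III genes rose and 1 fell, and 5 of 15 ATP synthase genes rose and none fell. With library totals only, 8 accessory complex I genes rose and 6 fell, 4 complex IV genes rose and none fell, 3 complex III genes rose and 1 fell, and the ATP synthase counts were again 5 and none. Without knockout JQ1 replicate 3, 9 ATP synthase genes rose. For complex IV the unadjusted p by edgeR was under 0.05 in 8 of 12 genes, and for ATP synthase in 7 of 15. Over all tested genes it was under 0.05 in 9312 of 21698. The median of the 7 core complex I genes was 0.03. NDUFA7, which rose in wild type, was at 27.9, 28.2 and 27.0 CPM in knockout DMSO and 26.5, 25.9 and 35.9 CPM in knockout JQ1; the high value was that of replicate 3, and the groups overlapped.

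Between the genotypes, 25 members were called in both, 75.8% of those called in wild type and 86.2% of those called in knockout. Over all tested genes these shares were 76.2% and 73.3%. Of the 25 members, 23 rose in both and COX6C went opposite ways. Of the 5475 genes called in both over all tested genes, 5463 had the same direction. The 2 comparisons share no library. Across the 61 members Pearson's r of the log2 fold changes was 0.789, and 0.86 without COX6C, where it was 0.661 across all tested genes; these are descriptions over genes of the same libraries, not independent replicates. The difference of the responses was tested directly as the interaction of genotype and drug. It was called for 1 of 61 members (1.64%), with a positive difference, where 0.134% of all tested genes were called (0.0323% positive). An unadjusted p under 0.05 by edgeR was found in 3 members and in 1817 of 21698 tested genes. Without knockout JQ1 replicate 3, 2 members were called, 1 positive and 1 negative, where 0.395% of all tested genes were called. Then 12 members and 2924 of 22273 tested genes had an unadjusted p under 0.05. For the 10 subunit genes followed in every comparison (NDUFS1, NDUFV1, SDHA, SDHB, UQCRC1, UQCRFS1, COX4I1, COX5A, ATP5A1 and ATP5B) the difference ran from -0.20 to 0.10 on the log2 scale with a smallest adjusted p of 0.605 by edgeR.

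The member called for the interaction with all libraries was COX6C, a small nuclear-encoded subunit of complex IV. It was at 12.1, 13.4 and 13.6 CPM in wild-type DMSO and lower, at 10.2, 9.54 and 9.67 CPM, in wild-type JQ1. In knockout it was at 12.4, 10.5 and 10.2 CPM in DMSO and higher, at 13.3, 14.5 and 14.6 CPM, in JQ1. Neither pair of groups overlapped. The log2 fold change with JQ1 was -0.41 (SE 0.09, adjusted p 0.00395) in wild type and 0.36 (SE 0.09, adjusted p 0.00906) in knockout, and their difference was 0.76 (SE 0.13, adjusted p 0.0395, all by edgeR).

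The difference for COX6C kept its direction in every alternative run, from 0.711 to 0.932, but not its call. The adjusted p rose above 0.05 without any 1 of 9 of the 12 libraries (0.0658 to 0.154), and stayed below it when the library left out was replicate 1 of knockout DMSO (0.0302) or replicate 1 (0.0455) or 3 (0.0332) of knockout JQ1. The gene had 257 to 494 counts in a library, few for a complex IV subunit, and the table also holds 17 pseudogene rows named after it. Those rows had 2.82% to 7.77% as many counts as COX6C, and how reads were divided among them was not tested.

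**Figure D3:**
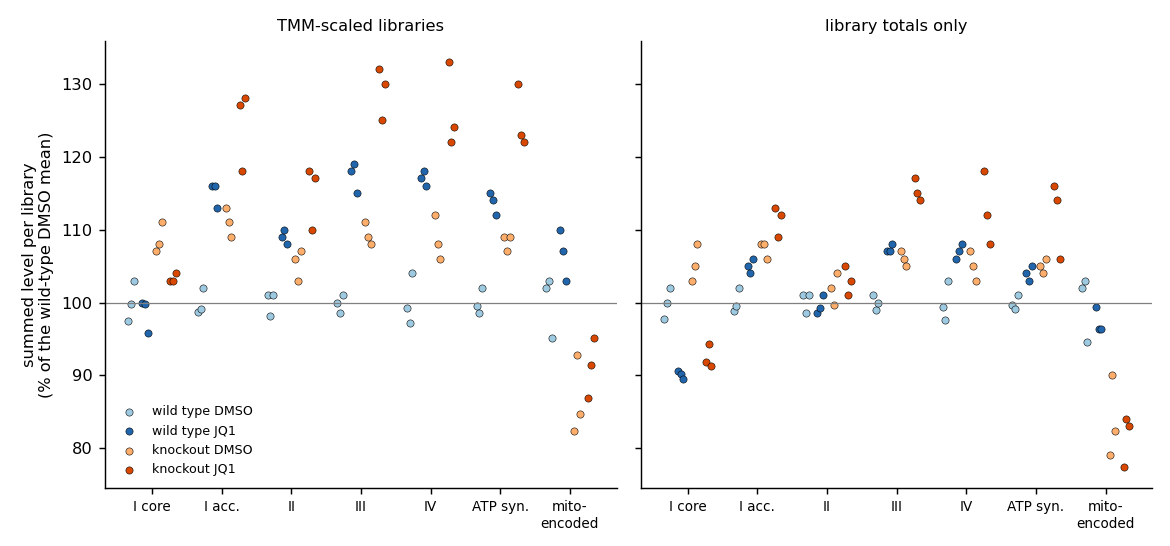
Summed CPM of the genes of each complex in each library (points), as a percentage of the wild-type DMSO mean, on TMM-scaled libraries (left) and on library totals only (right). The complex IV sum in wild-type JQ1 averaged 117% on the left and 107% on the right, and the sum of the mitochondrially encoded genes was lower in both knockout groups under either scaling.

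In wild type, the sum over the 61 members was 4825 ± 104 CPM with DMSO and 5486 ± 71.3 with JQ1 (SD, n = 3). In knockout it was 5267 ± 73.0 with DMSO and 5913 ± 200 with JQ1. On the TMM scale the ranges of the 4 groups did not overlap, from 4747 to 4943 CPM in wild-type DMSO up to 5694 to 6086 CPM in knockout JQ1. With library totals only, wild-type JQ1 was at 103%, 104% and 105% of the wild-type DMSO mean. Knockout DMSO was then at 106%, 106% and 105%, so the order of these 2 groups changed. By complex, the knockout JQ1 sum was 129% ± 3.61 of the wild-type DMSO mean for complex III, 126% ± 5.86 for complex IV, 124% ± 5.51 for the accessory genes of complex I, 115% ± 4.36 for complex II and 103% ± 0.577 for the core of complex I. With library totals only, these were 115%, 113%, 111%, 103% and 92.5%, so that the core of complex I changed side.

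Few members passed the test between knockout and wild-type cells in DMSO. Loss of MAPKAPK2 and other differences between these cells cannot be told apart here. In DMSO, 4 of 61 were higher in the knockout and none lower, 6.56%, where 7.92% of all tested genes were called (3.47% higher, 4.44% lower). An unadjusted p under 0.05 by edgeR was found in 28 members and in 4274 of 21698 tested genes. Positive values were found in 57 of the 61 members and in 49.0% of all tested genes. The members' median was 0.13, and that of all genes 0.00. The count of called members hung on single libraries and on the fit. It was 16 without knockout JQ1 replicate 3, and 17 when only the compared groups entered the fit. It was 2 without wild-type DMSO replicate 1 or 2, without knockout DMSO replicate 2 or 3, or with library totals only. With library totals 49 of 61 were still positive, with a median of 0.08 where all genes shifted by -0.05. The share of the 4 noncoding RNAs was higher in knockout DMSO (10.5% to 11.6%) than in wild-type DMSO (9.42% to 9.76%), without overlap, and its part in this comparison was not tested.

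NDUFS8 (GRCh38 chr11:68030617-68036644, plus strand), a core complex I subunit with iron-sulfur clusters, was at 30.6, 30.7 and 35.6 CPM in wild-type DMSO and 41.6, 46.9 and 48.6 CPM in knockout DMSO, higher by 0.50 on the log2 scale (SE 0.10; edgeR adjusted p 0.00422). NDUFA13, an accessory subunit also known as GRIM-19, went from 178, 181 and 196 CPM to 223, 226 and 227 CPM (0.28, SE 0.06, adjusted p 0.00695 by edgeR). UQCR11 (0.27), a small subunit of complex III, was also higher. None of the 4 had overlapping groups, and the same share was not counted over all tested genes. SDHA (0.18), UQCRC1 (0.16), COX4I1 (0.08) and NDUFV1 (-0.02) did not pass.

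In JQ1, 8 of 61 members were higher in the knockout than in wild type and none lower, 13.1%. Of all tested genes, 8.57% were called (3.01% higher, 5.56% lower). An unadjusted p under 0.05 by edgeR was found in 25 members and in 4484 of 21698 tested genes. COX6C had the largest value (0.52, SE 0.10, adjusted p 0.00257 by edgeR). UQCRQ was at 184, 183 and 184 CPM in wild-type JQ1 and 223, 207 and 231 CPM in knockout JQ1 (0.27, SE 0.05, adjusted p 0.00429 by edgeR). UQCRB (0.26), NDUFB1 (0.24), UQCRFS1 (0.22), NDUFA1 (0.22), NDUFB2 (0.21) and COX5A (0.18) were the others. The median was 0.10 and 54 of 61 values were positive, where 49.7% were positive over all tested genes. The count was 12 without knockout JQ1 replicate 3, and 2 or 3 without any 1 of the wild-type libraries, knockout DMSO replicate 2 or 3, or knockout JQ1 replicate 1, and 2 with library totals only. None of the 61 members lies distal to MAPKAPK2 on chromosome 1.

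**Figure D4:**
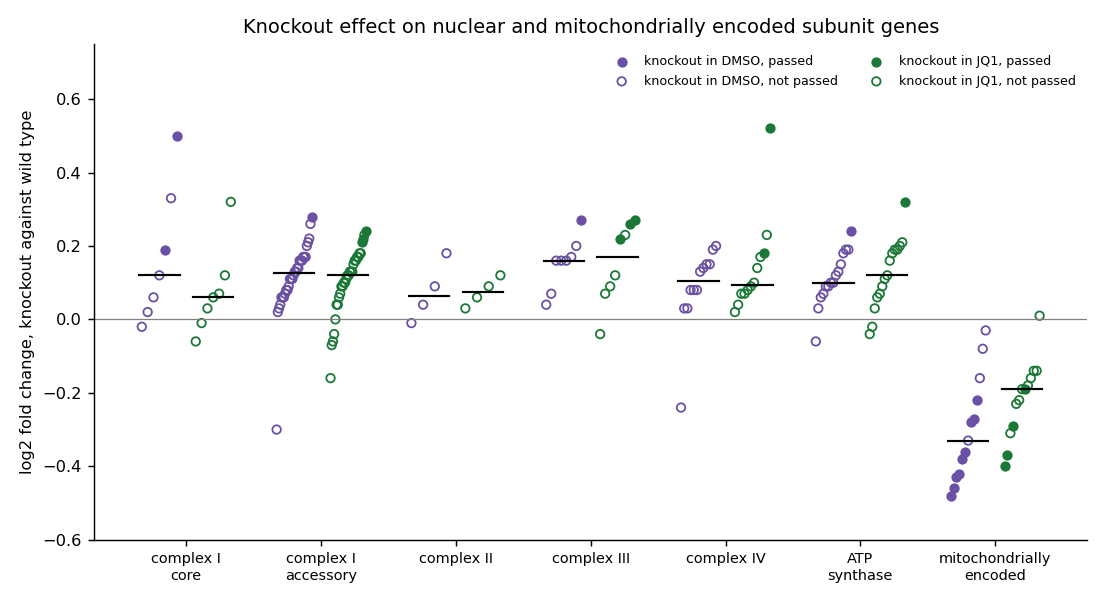
Log2 fold change of knockout against wild type (vertical axis) in DMSO (purple) and in JQ1 (green) for each subunit gene by complex and for the 13 mitochondrially encoded subunit genes; filled points passed an adjusted p of 0.05 and bars are medians. The nuclear genes lie mostly above 0, with complex medians of up to 0.17, and the mitochondrially encoded genes lie below 0, except MT-ND1 in JQ1 (0.01), with medians of -0.33 and -0.19.

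The subunits encoded by mitochondrial DNA had values of the opposite sign; the difference between the 2 gene groups was not tested. In DMSO all 13 had negative values in the knockout and 9 passed (69.2%, where 7.92% of all tested genes were called), with a median of -0.33. With library totals only 9 also passed, with a median of -0.38. MT-ND4, a proton-pumping subunit of complex I, was at 2220, 2350 and 2130 CPM in wild-type DMSO and 1550, 1950 and 1730 CPM in knockout DMSO (-0.36, SE 0.08, adjusted p 0.0114 by edgeR). MT-ND6 (-0.48), MT-ND5 (-0.46) and MT-ATP6 (-0.38) were also lower. MT-CO1, the catalytic subunit of complex IV, was at -0.03 and did not pass. In JQ1, 4 of 13 were lower (30.8%, where 8.57% of all tested genes were called), with a median of -0.19. Without knockout JQ1 replicate 3, 8 were lower. MT-CO3 had the smallest adjusted p there, from 2270, 2240 and 2190 CPM in wild type to 1810, 1900 and 1750 CPM in knockout (-0.29, SE 0.04).

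With JQ1, 2 of the 13 mitochondrial genes rose in wild type (MT-CO3 0.24, MT-ATP6 0.22) and none fell by edgeR. In knockout 4 rose, among them MT-ND1 (0.62), and none fell. An unadjusted p under 0.05 was found in 3 and 6 of the 13, where all tested genes gave 9114 and 9312 of 21698. With library totals only, none rose and 1 fell in wild type, and 1 rose and 1 fell in knockout. Without knockout JQ1 replicate 3, 2 rose in knockout. These mRNAs are abundant, and their summed level in wild type was 17970 ± 746 CPM with DMSO and 19150 ± 601 with JQ1 (SD, n = 3). In knockout it was 15570 ± 975 with DMSO and 16380 ± 741 with JQ1.

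Assembly factors build the complexes without staying in them. With JQ1, 11 of 49 rose and 9 fell in wild type, and 14 rose and 12 fell in knockout (6 and 15 in each genotype with library totals only). That is 40.8% and 53.1% called, where 33.1% and 34.4% of all tested genes were called, also in both directions. SURF1, needed for complex IV assembly, was at 18.2, 17.3 and 19.6 CPM in wild-type DMSO and 26.3, 29.7 and 26.6 CPM in wild-type JQ1 (0.58, SE 0.08), and it rose by 0.62 in knockout. NDUFAF3, a complex I assembly factor, rose by 0.52 in wild type, and COX10, which makes the heme of complex IV, fell by 0.50 on the log2 scale in knockout. Between knockout and wild type, 10.2% of the assembly factors were called in DMSO and 14.3% in JQ1, where 7.92% and 8.57% of all tested genes were called. In DMSO, 3 were higher (5 without knockout JQ1 replicate 3), with COA3 (0.38) and NDUFAF2 (0.37) leading, and 2 were lower, COA6 and COX20. In JQ1, 5 were higher, led by COA3 (0.39) and COX14 (0.34), and the same 2 were lower. Both lie distal to MAPKAPK2 on chromosome 1, and of the 5 genes there among those listed, all had lower values in the knockout (COA6, COX20, FH, TFB2M and ESRRG); the part of this position was not tested.

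Among 16 regulators of mitochondrial gene expression, 2 rose and 5 fell with JQ1 in wild type, and 1 rose and 6 fell in knockout. That is 43.8% called in each genotype, where 33.1% and 34.4% of all tested genes were called. TFB1M, a methyltransferase of mitochondrial ribosomal RNA, was at 52.2, 50.8 and 49.9 CPM in wild-type DMSO and 35.8, 37.2 and 39.2 CPM in wild-type JQ1 (-0.45, SE 0.07), and went from 46.1, 40.2 and 45.1 to 28.4, 27.8 and 24.8 CPM in knockout (-0.70, SE 0.07); the interaction did not pass (adjusted p 0.517 by edgeR). YY1 fell by 0.28 and 0.29. NRF1 itself (0.09 and 0.15) and TFAM, which packages mitochondrial DNA (0.02 and 0.01), did not pass. PPARGC1A had a mean of 0.336 CPM in wild-type DMSO and 0.859 CPM in wild-type JQ1, low levels at which its log2 fold change of 1.34 (SE 0.33) rests on few counts. In the knockout in DMSO, MITF (-0.58, SE 0.08), ESRRG (-1.12, SE 0.19) and TFB2M (-0.35) were lower and MYC was higher (0.50, SE 0.11); in JQ1 these 3 were lower too (TFB2M -0.34), as was TFB1M (-0.47).

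In the citric acid cycle, which supplies NADH and succinate, 5 of 13 genes rose and 1 fell with JQ1 in each genotype. That is 46.2% called, where 33.1% of all tested genes were called in wild type and 34.4% in knockout. IDH3A, a subunit of isocitrate dehydrogenase, rose by 0.88 (SE 0.11) in wild type and 0.78 in knockout, while SUCLG2, the GTP-forming subunit of succinyl-CoA ligase, fell by 0.78 (SE 0.07) and 0.94. FH was the only 1 of the 13 that passed in the knockout comparisons, with -0.34 in DMSO and -0.32 in JQ1. That is 7.69% in each, where 7.92% and 8.57% of all tested genes were called. Of the mobile carrier and other subunit genes outside the selection, 9 of 13 were tested; CYCS, which encodes cytochrome c, rose by 0.28 in wild type and 0.52 in knockout, and CYC1 did not pass (0.16 and -0.06).

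Cytosolic ribosomal protein genes, another family of short and abundant mRNAs, were set beside the members, whose median transcript length was 702 bases against 1878 for tested protein-coding genes. Of 83 tested, 10 rose and 31 fell with JQ1 in wild type (49.4% called, where 33.1% of all tested genes were). In knockout 5 rose and 25 fell (36.1%, where 34.4% of all tested genes were called). On the TMM scale the balance of the ribosomal protein genes was thus opposite to that of the members. With library totals only the counts were 4 and 53, and 1 and 47, where those of the members were 16 and 15, and 16 and 9. RPL21 fell by 0.71 on the log2 scale in wild type. In the knockout comparisons the 2 families had the same sign. In DMSO 18 ribosomal protein genes were higher and none lower (21.7%, where 3.47% of all tested genes were higher). In JQ1 the counts were 25 and none (30.1%, where 3.01% of all tested genes were higher). These counts of higher genes were 38 and 47 without knockout JQ1 replicate 3, and 9 and 18 with library totals only. Without that library, 9 rose with JQ1 in knockout in place of 5. The difference between the families was not tested. The GC content of the members was 50.1% at the median and that of tested protein-coding genes 49.8%, and with offsets for GC content and length the members' median was 0.15 with JQ1 in wild type, with 32 rises and 6 falls. In knockout it was 0.10, with 26 rises, 8 falls and 40 positive values, where 4 falls and 47 positive values were found without the offsets.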

How the data were processed

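The authors deposited estimated counts per gene symbol (not whole numbers) and a normalized signal. The submitters' processing notes name Trim Galore, cutadapt, FastQC, MultiQC, kallisto, DESeq2 and GRCh38.p10, without roles; strand use in counting is not given in the sources used here. Per the labels' protocols, libraries were directional and depleted of ribosomal RNA. Groups came from the sample labels; titles say untreated where the treatment field says DMSO, which was followed. These estimates were rounded to whole numbers here. Genes passing filterByExpr (21698, at least 99.9% of each library's counts) were scaled with TMM (factors 0.926 to 1.065) and fitted over 12 libraries with 1 term per group in edgeR 4.0.16 (limma 3.58.1, R 4.3.3), prior count 0.125, and p-values were adjusted by Benjamini-Hochberg at 0.05. SE was derived as the size of the log2 change over the root of its F statistic, and a 95% interval is 1.96 SE. The script was tested on simulated data. Alternatives also used DESeq2 1.42.0 and limma on log2 of the authors' signal plus 1. The members and lists were chosen with earlier results of these data known. Set to be named in each comparison were MAPKAPK2, 10 subunit genes, up to 5 members with the largest rise and 5 with the largest fall past the threshold without overlapping replicates, members past it in the interaction, and up to 2 genes per other list. Not all of these values are printed, and other genes were chosen after their values were seen. Chromosomes, transcript lengths and overlaps came from GENCODE (GRCh38) by symbol, and promoters from RefSeq. Depth limits precision, and estimated counts carry mapping error beyond counting error. One member is counted in the totals but its own values are not reported here.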

Additional observations from a re-analysis of the deposited data

Results flagged for a closer look

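COX6C was the member whose JQ1 response differed between the genotypes by the test of the difference itself: its log2 fold change was -0.41 in wild type and 0.36 in knockout, a difference of 0.76 (SE 0.13, adjusted p 0.0395 by edgeR's quasi-likelihood test). All 3 JQ1 libraries lay below all DMSO libraries in wild type and above them in knockout. The call was lost with the replicate block (adjusted p 0.119) and without any 1 of 9 of the 12 libraries (0.0658 to 0.154); DESeq2 gave an adjusted p of 0.000344 and limma on the authors' signal 0.0193.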

How the results depend on the processing

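The 5 comparisons and the named genes were recomputed under 21 alternatives, 12 of which leave out 1 library. The members called with JQ1 stayed within 1.5 times of the count reported, from 23 to 40 in wild type; in knockout they ranged from 19 to 34, with 19 when only the groups compared were fitted. At an adjusted p of 0.01 the counts were 21 and 19 with JQ1, 2 and 2 for the knockout in DMSO and in JQ1, and 0 for the interaction. The knockout count in DMSO was 2 with library totals only, 17 with only the groups compared, 11 with GC and length offsets, 7 with limma and 11 with DESeq2, and 2 to 16 with 1 library left out. In JQ1 it was 2 with library totals only, 4 with no low-count filter, 2 with only the groups compared, 3 with limma, and 2 to 12 with 1 library left out. The interaction called 0 to 2 members with 1 library left out. The cause of these changes was not tested. Same-numbered replicates did not deviate together (18 pairs, r from -0.115 to 0.0786, 2 of them best matched by their own number); with the replicate block the counts were 34, 28, 2, 3 and, for the interaction, 0 (4 members at an unadjusted p under 0.05). The summed CPM of the members with library totals only was 5115, 5317, 5406 and 5604 in wild-type DMSO, wild-type JQ1, knockout DMSO and knockout JQ1, against the 4825, 5486, 5267 and 5913 reported. The genes that changed sign were near 0. With JQ1 in wild type, library totals only gave -0.1017 for NDUFS1 and -0.1135 for UQCRFS1, while RLE size factors, no filter, only the groups compared, limma and DESeq2 gave 0.0028, 0.0005, 0.0071, 0.007 and 0.0026 for NDUFV1 and 0.0107, 0.0086, 0.0153, 0.0127 and 0.0104 for COX4I1. In knockout, library totals only gave -0.0825 for NDUFS1, -0.1121 for NDUFV1, -0.043 for UQCRFS1 and -0.1011 for COX4I1; NDUFV1 was -0.0014 with no filter, -0.0049 with only the groups compared and -0.1169 with GC and length offsets (adjusted p 0.0489 by edgeR), where COX4I1 was -0.0664. For the knockout, library totals only gave -0.0234 for NDUFS1 in DMSO, and -0.0042 for NDUFS1 and -0.0002 for SDHB in JQ1, where SDHB was -0.0053 with the offsets. With 1 library left out, values with JQ1 in wild type ran from -0.057 to 0.0494 for NDUFV1, -0.0325 to 0.0563 for UQCRFS1 and -0.0396 to 0.0491 for COX4I1. In knockout they ran from -0.0096 to 0.0809 for NDUFS1, -0.0584 to 0.0436 for NDUFV1 and -0.0004 to 0.0451 for COX4I1. For the knockout they ran from -0.0629 to 0.0439 for NDUFV1 in DMSO, and in JQ1 from -0.0033 to 0.0743 for NDUFS1, -0.0724 to 0.0293 for NDUFV1, -0.0074 to 0.1402 for SDHA and -0.0018 to 0.0639 for SDHB. NDUFC1 and COX6C had the fewest counts, but the SE did not follow depth alone. With JQ1 in wild type it was 0.12 for NDUFC1 (119 to 218 counts), 0.09 for COX6C (257 to 494) and 0.13 for NDUFS7 (534 to 1010). Changes that are small beside the SE could not be resolved.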
